A study of Mus musculus with 6 samples.

Results

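The genes described here are 10 Krüppel-like factor (KLF) genes of the mouse, Klf9, Klf13, Klf10, Klf11, Klf6, Klf5, Klf4, Klf3, Klf15 and Klf2, found by gene symbol among the 27179 genes of the deposited table. They were measured by RNA sequencing in 6 libraries of organoids, small epithelial cultures grown in a gel of Matrigel from the small intestine of wild-type (WT) mice. For 3 libraries the organoids had received T3, the active form of thyroid hormone, at 1e-07 M over 17 h, and for the other 3 the vehicle over the same time. Every library came from WT tissue in the same medium, Intesticult, and the labels leave unsaid whether replicates are distinct cultures or mice. The p-values therefore reflect library-to-library spread, which could be technical alone. Age, sex and strain of the mice are not given in the sources used here.

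KLF proteins are transcription factors whose zinc fingers bind GC-rich and CACCC sequences, the same letters that the related Sp proteins bind. Some activate their targets, and others recruit corepressors such as SIN3A or the CtBP proteins. In the intestinal epithelium Klf5 is known from dividing crypt cells and Klf4 from differentiated cells, goblet cells among them. Klf9 is known as a direct target of the thyroid hormone receptor in several tissues.

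Values are the reads per gene that the authors scaled between libraries and rounded, called normalized reads here. Column totals were 29510422 to 29974091 normalized reads in T3 libraries and 28197080 to 28611883 in vehicle libraries, and the unscaled depth is not in the table. Genes were tested if 3 or more of the 6 libraries had 10 or more normalized reads, and calls were made where limma gave an adjusted p under 0.05, with Benjamini-Hochberg adjustment over all 13052 genes tested. The defining genes of epithelium were present, with Epcam at 43854 to 44612 in T3 libraries and 38654 to 39458 in vehicle libraries. Of 7 endothelial markers 4 were at 0 in every library (Cdh5, Kdr, Emcn and Cldn5), and the 10 fibroblast and muscle markers summed to 9 to 27 normalized reads per T3 library and 13 to 27 per vehicle library. Among 6 immune markers the pan-leukocyte gene Ptprc was at 1, 3 and 0 in T3 libraries and 1, 0 and 0 in vehicle libraries, while the list summed to 495 to 517 with T3 and 184 to 218 with vehicle through Itgam and Cd14. Enterocyte markers were higher with T3 (5 of 9 rose and Fabp2 fell, where 24.0% of all tested genes rose and 20.8% fell). The list summed to 88785 to 103584 in T3 libraries and 52009 to 56872 in vehicle libraries. The part of cell makeup in the values below was not tested. In T3 replicate 3 and vehicle replicate 1 values lay farther from the rest of their groups: the mean chi-square per gene was 13.9 and 14.9 in pairs with T3 replicate 3 and 5.07 between the other T3 libraries, and 8.13 and 9.92 in pairs with vehicle replicate 1 against 4.89 between the other vehicle libraries.

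T3 raised 5 of the KLF genes and lowered 1. Klf9 rose 6.08-fold, Klf6 1.97-fold, Klf13 1.74-fold, Klf10 1.63-fold and Klf5 1.15-fold, and Klf11 fell, at 1.55-fold below vehicle. Klf3 and Klf4 did not pass the test, and Klf2 and Klf15 were too low to enter it. Of the 8 genes tested, which were above the filter in every library, 6 were called, where 44.8% of all tested genes were called in either direction, 24.0% higher and 20.8% lower with T3. The same 6 genes had groups that did not overlap, which held for 54.9% of all tested genes. The median log2 fold change of the 8 was 0.45, against -0.01 over all tested genes. T3 was the higher group in 53.6% of all calls as deposited, in 40.4% after upper-quartile scaling and in 38.7% after equalizing column totals, changes that lowered the median log2 fold change of all genes by less than 0.1. The 6 calls and their directions held under both scalings, and Klf3 was then called lower as well. In bulk RNA fewer cells of a type and less RNA per cell cannot be told apart.

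**Figure D1:**
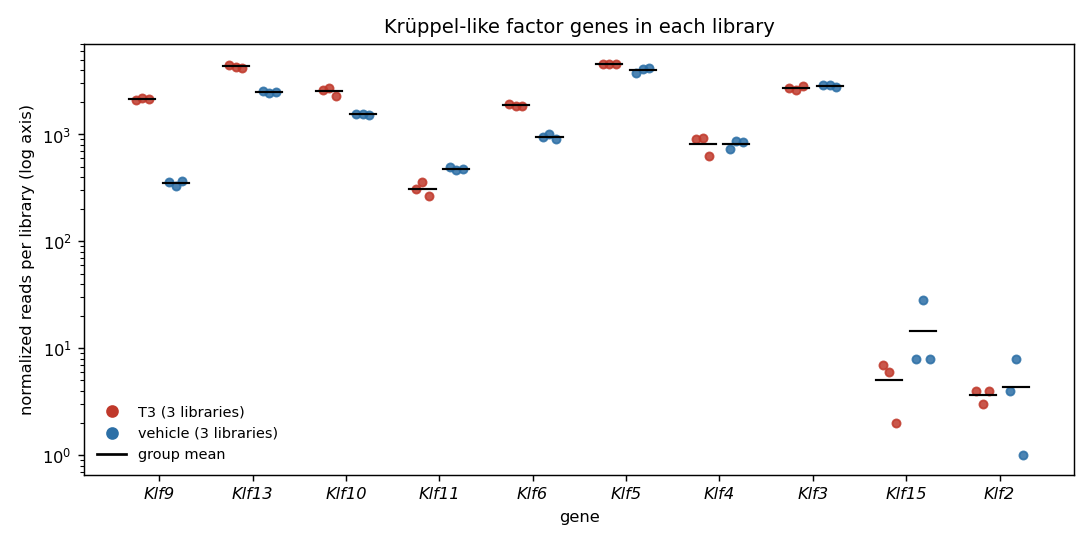
Normalized reads of each Krüppel-like factor gene in each library, on a log axis, with T3 libraries (red) left of vehicle libraries (blue) and a black line at each group mean. Klf9 sits at 2080 to 2201 in T3 libraries and 329 to 366 in vehicle libraries, the widest gap among the 10 genes, and Klf15 and Klf2 stay under 30 in every library.

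Klf9 and Klf13 are close relatives, both binders of the basic transcription element that recruit SIN3A. Klf9 (gene ID 16601, GRCm38 chromosome 19, 23141226 to 23166911, plus strand) has 2 exons in the deposited annotation, of 1034 and 2229 bases. It stood at 2080, 2201 and 2151 normalized reads in T3 libraries and at 362, 329 and 366 in vehicle libraries. Every T3 library was far above every vehicle library, and the spread within each group was small beside the gap. The log2 fold change was 2.60 ± 0.06 (SE, limma, adjusted p = 2.46e-09). Among tested genes called, 113 rose at least 4-fold with T3, or 0.866% of those tested, and Klf9 ranked 65 by log2 fold change and 12 by p-value among all 13052. The microRNA gene Mir1192 lies in the intron of Klf9 on the same strand and was listed at 0 in every library. Klf13 (gene ID 50794, chromosome 7, 63886351 to 63938915, minus strand, 2 exons) stood at 4499, 4282 and 4223 in T3 libraries and at 2551, 2448 and 2492 in vehicle libraries. Its groups were also apart, with a log2 fold change of 0.80 ± 0.04 (SE, limma, adjusted p = 3.93e-07).

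The log2 ratio of Klf9 to Klf13 put the difference between these relatives in single numbers. It was -1.11, -0.96 and -0.97 in T3 libraries and -2.81, -2.89 and -2.76 in vehicle libraries. The T3 mean was 1.81 above the vehicle mean, with no overlap (exact permutation test, two-sided p = 0.1, the smallest that 3 against 3 allows, and 0.15 adjusted over the 6 such tests made). Klf9 thus gained on Klf13 in each T3 library although both rose.

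The promoters of 4 called genes are shown because 3 of these genes rose together and Klf11 fell. Each line gives the 250 bases before the transcript start, from RefSeq on GRCm38.p6, and capitals mark GGGCGG (the GC box) and CCACCC (a 6-letter form of the CACCC box) on either strand, letters that KLF and Sp proteins are known to bind. Klf9 spans chr19:23140976-23141225 on the plus strand, Klf13 chr7:63938916-63939165 on the minus strand, Klf6 chr13:5861239-5861488 on the plus strand and Klf11 chr12:24651121-24651370 on the plus strand.
Klf9: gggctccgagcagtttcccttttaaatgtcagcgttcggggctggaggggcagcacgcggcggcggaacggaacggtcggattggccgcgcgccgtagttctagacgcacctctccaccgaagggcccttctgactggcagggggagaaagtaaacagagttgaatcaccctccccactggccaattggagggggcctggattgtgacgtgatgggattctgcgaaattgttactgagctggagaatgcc
Klf13: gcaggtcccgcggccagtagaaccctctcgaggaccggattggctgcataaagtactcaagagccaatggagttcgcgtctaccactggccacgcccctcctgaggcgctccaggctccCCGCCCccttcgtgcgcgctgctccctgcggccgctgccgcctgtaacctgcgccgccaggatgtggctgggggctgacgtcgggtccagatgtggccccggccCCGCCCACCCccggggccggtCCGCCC
Klf6: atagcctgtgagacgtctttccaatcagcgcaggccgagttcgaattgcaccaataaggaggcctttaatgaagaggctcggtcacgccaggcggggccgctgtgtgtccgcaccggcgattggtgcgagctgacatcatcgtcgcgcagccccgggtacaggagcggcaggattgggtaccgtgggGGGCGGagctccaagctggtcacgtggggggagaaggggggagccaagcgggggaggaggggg
Klf11: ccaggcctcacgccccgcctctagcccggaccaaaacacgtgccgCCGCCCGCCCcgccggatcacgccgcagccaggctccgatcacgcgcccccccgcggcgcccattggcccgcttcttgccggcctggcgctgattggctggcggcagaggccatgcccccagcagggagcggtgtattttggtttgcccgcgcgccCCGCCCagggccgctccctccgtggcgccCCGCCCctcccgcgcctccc
The Klf9 window holds neither of these 6-letter motifs and so has no capitals, but it holds the shorter CACCC 1 time. CACCC on either strand was in 5 of the 8 matched windows and in 52.0% of all windows. Klf13 has 3 GC boxes and 1 CCACCC, of which 1 pair overlaps, Klf6 has 1 GC box, and Klf11 has 4 GC boxes, 2 of them overlapping. RefSeq windows matched 8 of the 10 genes, all but Klf5 and Klf10, and 7 of these 8 held a GC box and 3 the letters CCACCC, against 32.7% and 28.1% of the 32851 windows of the same length in the table. The nuclear receptor half-site AGGTCA, searched like the other motifs on both strands, was in 0 of the 8 windows and in 4607 of all windows, and its direct repeat with 4 bases between the copies, the arrangement known for the thyroid hormone receptor, was in 0 of the 8 and in 5 of all windows. These counts describe letters in a short window and say nothing of binding there or elsewhere. Base composition differed too: Klf9 had 59.6% G and C in its window, Klf6 64.8%, Klf13 71.6% and Klf11 76.8%. The 8 windows ran from 59.6% (Klf9) to 78.4% (Klf3), all above the median of 52.4% over all windows. The motif shares were not adjusted for this, and the part of base composition in them was not tested.

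Klf10 and Klf11, known as early genes induced by TGF-beta and as SIN3A-binding repressors, went in opposite directions. Klf10 (gene ID 21847, chromosome 15, 38294413 to 38300707, minus strand, 4 exons) stood at 2583, 2741 and 2266 normalized reads in T3 libraries and at 1559, 1560 and 1528 in vehicle libraries. T3 replicate 3 was the lowest of the T3 libraries and still above every vehicle library (log2 fold change 0.70 ± 0.06 SE, limma, adjusted p = 2.11e-05). Klf11 (gene ID 194655, chromosome 12, 24651371 to 24662782, plus strand, 4 exons) stood at 312, 356 and 266 in T3 libraries and at 495, 464 and 478 in vehicle libraries. In T3 libraries it was the called member with the lowest level, while with vehicle Klf9 was lower. All T3 libraries of Klf11 lay below all vehicle libraries (log2 fold change -0.63 ± 0.10 SE, limma, adjusted p = 0.000845). The log2 ratio of Klf10 to Klf11 averaged 3.02 ± 0.07 with T3 and 1.69 ± 0.05 with vehicle (SD, n = 3 each, exact permutation test, two-sided p = 0.1, the smallest possible, and 0.15 adjusted over the 6 tests).

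Klf6, an early-induced factor known from wounded epithelium and growth control, rose by nearly a whole log2 unit. Klf6 (gene ID 23849, chromosome 13, 5861489 to 5870393, plus strand, 4 exons) stood at 1921, 1845 and 1849 normalized reads in T3 libraries and at 938, 1015 and 902 in vehicle libraries. The T3 libraries were close to each other and about equally far from each vehicle library (log2 fold change 0.98 ± 0.05 SE, limma, adjusted p = 6.69e-07).

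Klf5, known to promote division in the crypt, changed little in size though it passed the test. Klf5 (gene ID 12224, chromosome 14, 99298691 to 99313412, plus strand, 4 exons) stood at 4583, 4557 and 4604 normalized reads in T3 libraries and at 3797, 4056 and 4143 in vehicle libraries. The log2 fold change was 0.20 ± 0.04 (SE, limma, adjusted p = 0.00377), and it was 0.13 when column totals were equalized and 0.14 after upper-quartile scaling. Markers of the crypt moved beside it the other way: the stem cell gene Olfm4 was at 4706 to 5683 in T3 libraries and at 24540 to 30164 in vehicle libraries, and Lgr5, the receptor that marks cycling stem cells, at 1658 to 2469 in T3 libraries and at 4140 to 5094 in vehicle libraries. Of 7 crypt and cycling markers 5 fell and 1 rose, where 20.8% of all tested genes fell and 24.0% rose. The rise, of Top2a, was lost under each other scaling, with the replicate block and without T3 replicate 1, T3 replicate 3, vehicle replicate 2 or vehicle replicate 3 (limma, adjusted p = 0.0504 to 0.198). The fall of Mcm5 was lost without T3 replicate 1, T3 replicate 2 or vehicle replicate 3 (limma, adjusted p = 0.0693 to 0.0863). The list summed to 60058 to 66613 in T3 libraries and 79476 to 96266 in vehicle libraries, a gap that lies mainly in Olfm4. The falls of Mcm5 and Pcna were small, at log2 fold changes of -0.17 and -0.13, and Mki67 was not called. The part of these markers in the level of Klf5 was not tested.

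Klf4, known for goblet cell maturation and for arrest of division, did not pass. Klf4 (gene ID 16600, chromosome 4, 55527137 to 55532475, minus strand, 5 exons) stood at 910, 928 and 629 normalized reads in T3 libraries and at 733, 865 and 853 in vehicle libraries. T3 replicate 3 was below every vehicle library and the other T3 libraries were above every one. The log2 fold change was -0.01 with a 95% interval of -0.32 to 0.30 (limma, adjusted p = 0.967), and 0.17 without T3 replicate 3, also not called. Goblet cell markers followed the same libraries: 7 of 8 were lower in T3 replicate 3 than in the other T3 libraries, and the 8 summed to 97867, 102914 and 64460 in T3 replicates 1, 2 and 3, against 75209 to 93274 in vehicle libraries. Of these 8 markers only Clca1 was called, higher with T3, and their part in the level of Klf4 was not tested. The log2 ratio of Klf4 to Klf5 was -2.33, -2.29 and -2.87 in T3 libraries and -2.37, -2.23 and -2.28 in vehicle libraries, a difference of -0.21 in means that was within the spread of the T3 libraries (exact permutation test, two-sided p = 0.4).

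Klf3, a repressor that recruits CtBP, did not pass the test with the deposited scaling. Klf3 (gene ID 16599, chromosome 5, 64803523 to 64830129, plus strand, 6 exons) stood at 2738, 2628 and 2858 normalized reads in T3 libraries and at 2932, 2877 and 2781 in vehicle libraries. The groups overlapped, and the log2 fold change was -0.06 with a 95% interval of -0.16 to 0.04 (limma, adjusted p = 0.275). With upper-quartile scaling it was -0.12 (adjusted p = 0.042) and with equal column totals -0.13 (adjusted p = 0.0427), so a small fall depends on the scaling. The gene Gm20033 overlaps Klf3 on the opposite strand but shares 0 exon bases with it in the deposited annotation.

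Klf2 and Klf15 were near the bottom of detection. Klf2 (gene ID 16598, chromosome 8, 72319062 to 72321654, plus strand, 3 exons), best known from endothelium and lymphocytes, stood at 4, 3 and 4 normalized reads in T3 libraries and at 4, 8 and 1 in vehicle libraries (exact permutation test, two-sided p = 0.9). Klf15 (gene ID 66277, chromosome 6, 90462626 to 90475209, plus strand, 3 exons), known for glucocorticoid-induced control of amino acid and glucose metabolism, stood at 7, 6 and 2 in T3 libraries and at 8, 28 and 8 in vehicle libraries. Vehicle replicate 2 alone lifted the vehicle mean of Klf15, though every T3 library was below every vehicle library (exact permutation test, two-sided p = 0.1, the smallest possible, and 0.15 adjusted over the 6 tests). The authors' deposited table gives Klf15 a log2 fold change of -1.32 with an adjusted p of 0.0856. Klf2 and Klf15 were thus not called at these levels.

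**Figure D2:**
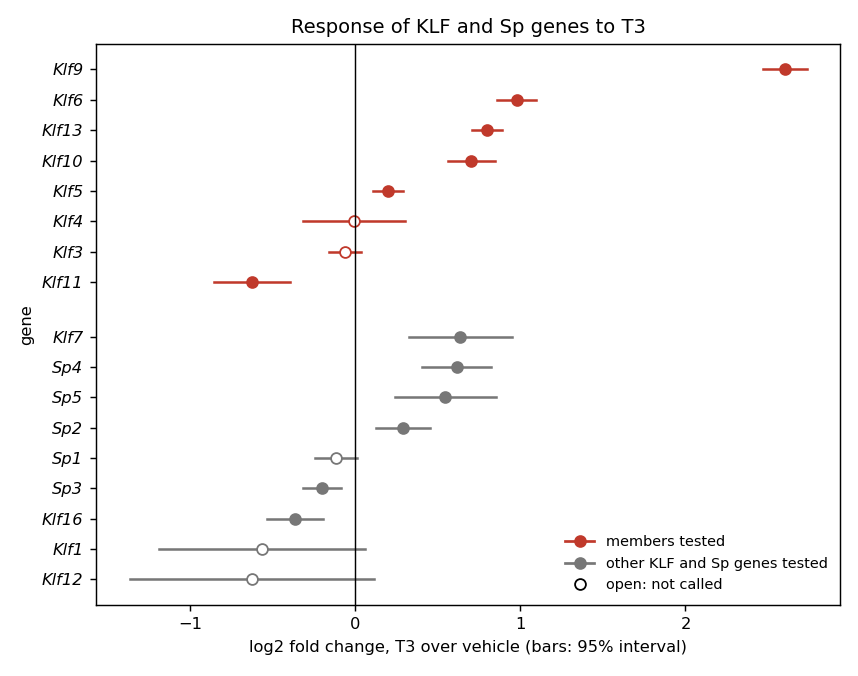
Log2 fold change of T3 over vehicle with its 95% interval for the 8 Krüppel-like factor genes tested (red) and the 9 other KLF and Sp genes tested (grey), filled where called. Klf9 stands alone at 2.60, Klf6, Klf13 and Klf10 lie between 0.70 and 0.98, and Klf11 at -0.63.

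Levels were compared between genes per length, as normalized reads per kilobase of exon set to the mean column total, a scale like RPKM. Klf5 was highest in both groups, at 91.0 ± 0.468 with T3 and 79.5 ± 3.58 with vehicle (SD, n = 3 each). Next came Klf3, at 40.7 ± 1.71 with T3 and 42.5 ± 1.13 with vehicle, Klf10, at 28.5 ± 2.73 with T3 and 17.5 ± 0.205 with vehicle, and Klf13, at 23.3 ± 0.780 with T3 and 13.4 ± 0.277 with vehicle. Klf9 moved up in the order: its level was 22.6 ± 0.640 with T3, rank 5 and overlapping the range of Klf13, and 3.71 ± 0.214 with vehicle, rank 8 and below Klf11. Klf6 was at 15.2 ± 0.348 with T3 and 7.75 ± 0.470 with vehicle, and Klf4 at 9.28 ± 1.89 with T3 and 9.22 ± 0.823 with vehicle. Klf11 followed at 2.68 ± 0.388 with T3 and 4.13 ± 0.134 with vehicle. Of the neighbours in the order, Klf13 and Klf9 overlapped with T3, as did Klf15 and Klf2 in both groups, and the other neighbours did not.

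The summed level of the 10 genes was higher with T3, and its makeup shifted. It was 236, 235 and 229 on this RPKM-like scale in T3 libraries and 174, 180 and 179 in vehicle libraries, which is 31.2% higher with T3 (exact permutation test, two-sided p = 0.1, the smallest possible, and 0.15 adjusted over the 6 tests). Summed as normalized reads, with no division by length, the level was 43.0% higher with T3, at 19345 ± 430 against 13527 ± 137 (SD, n = 3 each). On the RPKM-like scale without Klf9 the sum was 211 ± 3.72 with T3 and 174 ± 3.18 with vehicle, 21.0% higher. Klf9 made up 9.67% ± 0.328 of the full sum on that scale with T3 and 2.09% ± 0.142 with vehicle (SD, n = 3 each). The share of Klf5 was 39.0% ± 0.774 with T3 and 44.6% ± 1.33 with vehicle, and that of Klf3 17.4% ± 0.976 with T3 and 23.9% ± 0.976 with vehicle. Klf5 thus lost share while its own level was higher, since the sum grew more.

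**Figure D3:**
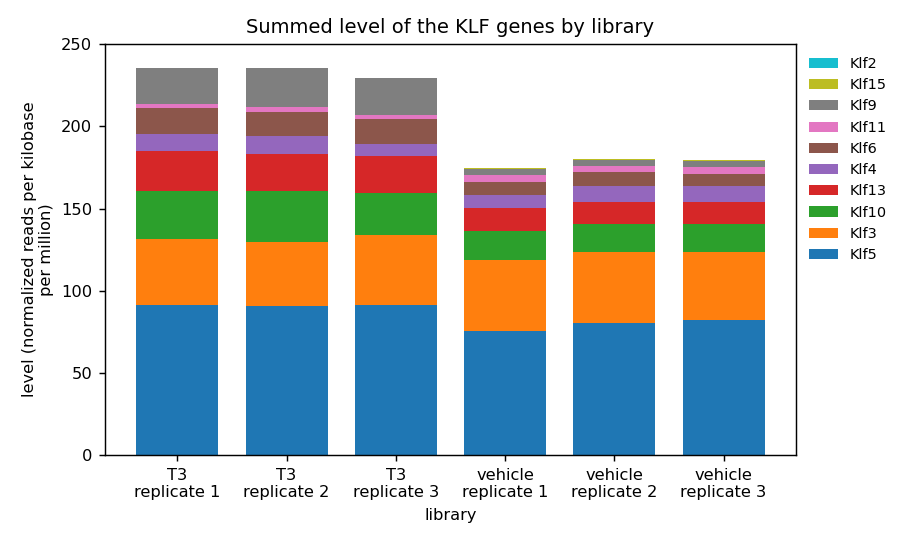
Level of the 10 Krüppel-like factor genes in each library, stacked, on the RPKM-like scale, with the 3 T3 libraries left of the 3 vehicle libraries. The stacks reach 229 to 236 with T3 and 174 to 180 with vehicle, and the grey layer of Klf9 is thicker in each T3 library.

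Of 16 further KLF and Sp genes 9 were tested, and 4 rose and 2 fell, where 24.0% of all tested genes rose and 20.8% fell. Klf7, a relative of Klf6, stood at 283, 332 and 223 normalized reads in T3 libraries and at 188, 180 and 164 in vehicle libraries (log2 fold change 0.64 ± 0.14 SE, limma, adjusted p = 0.0046). Sp4 rose 1.53-fold, Sp5, a Wnt-responsive factor, 1.46-fold and Sp2 1.22-fold. Klf16, a SIN3A-binding relative of Klf9 and Klf13, fell and averaged 785 ± 60.9 with T3 and 1012 ± 79.8 with vehicle (SD, n = 3 each, limma, adjusted p = 0.0031). The broadly expressed Sp3 fell to 2411 ± 142 with T3, against 2775 ± 99.4 with vehicle. Sp1 averaged 5235 ± 213 with T3 and 5679 ± 437 with vehicle and did not pass (limma, adjusted p = 0.128), but it passed with upper-quartile scaling (adjusted p = 0.0251) and with equal column totals (adjusted p = 0.0249). Klf1, the erythroid factor, stood at 15, 12 and 9 in T3 libraries and at 18, 16 and 20 in vehicle libraries, and it was not called. Klf12, a CtBP-binding repressor, stood at 18, 28 and 13 in T3 libraries and at 26, 43 and 23 in vehicle libraries, and it was not called. The median log2 fold change of the 9 was -0.12.

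Among corepressors and coactivators that KLF proteins recruit, 15 were tested, of which 2 rose, 5 fell and 8 did not pass, with a median log2 fold change of -0.10. The 7 calls are a share near the 44.8% called over all tested genes. The falls of Ncor1 and Wdr5, which are outside the naming rule, were lost without T3 replicate 1, T3 replicate 2 or vehicle replicate 3, which left 3 falls. The SIN3 complex was mixed: Sin3a, its scaffold, fell to 3221 ± 95.9 with T3, against 3712 ± 132 with vehicle, Sap30, a subunit, rose 1.16-fold, and Sin3b was not called. Fhl2, a LIM-domain cofactor, fell to 1649 ± 47.4 with T3, against 2371 ± 19.5 with vehicle (limma, adjusted p = 6.42e-06), and Kat2b, an acetyltransferase, rose 1.47-fold. The deacetylase Hdac3 fell and was 1.12-fold lower. Ctbp1 and Ctbp2, partners of Klf3, were not called.

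Ubiquitin ligases known to act on KLF proteins gave 2 rises and 2 falls among 8 tested, a share of calls near the 44.8% over all tested genes, with a median log2 fold change of -0.04. Btrc, which targets Klf4, fell to 370 ± 10.8 with T3, against 467 ± 20.3 with vehicle (limma, adjusted p = 0.00309). Wwp1, which targets Klf5 and Klf2, fell to 1564 ± 122 with T3, against 1897 ± 182 with vehicle. That call was lost without T3 replicate 1 (limma, adjusted p = 0.0693) and with no variance trend (limma, adjusted p = 0.0597). Itch and Smurf1 passed at log2 fold changes of 0.14 and 0.16, but both calls were lost with upper-quartile scaling (limma, adjusted p = 0.137 for Itch and 0.162 for Smurf1), and then 0 genes of the list rose and 3 fell. Smurf1 was also not called with TMM scaling (limma, adjusted p = 0.057) or in the authors' deposited values (adjusted p = 0.0874). The list held 1 call without T3 replicate 1, 2 without T3 replicate 2 and 2 without vehicle replicate 2.

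Genes described in other studies as targets of KLF proteins rose in 8 of 17 tested cases and fell in 3, with a median log2 fold change of 0.26. The shares over all tested genes were 24.0% higher and 20.8% lower with T3. The list pools genes linked to different KLF members, among them a gene known as repressed, so its counts and median do not measure KLF action. Of the target genes, Alpi is also in the enterocyte list and Smad7 in the TGF-beta list. Lgals3, known as repressed by Klf3, rose 3.46-fold to 1086 ± 70.5 with T3, against 317 ± 63.1 with vehicle. The amino acid enzymes linked to Klf15 split: Got1 rose 2.21-fold and Prodh 1.98-fold, while Bcat2 fell to 407 ± 50.7 with T3, against 671 ± 12.2 with vehicle (limma, adjusted p = 0.000116). Arntl, the clock gene linked to Klf10, rose 1.31-fold. Cdkn1a, the cell cycle inhibitor linked to Klf4 and Klf6 and chosen here after its values were seen, was at 2780, 3148 and 2075 in T3 libraries and at 2137, 2467 and 2594 in vehicle libraries and was not called, and T3 replicate 3 was again the lowest library. Left without that library, Cdkn1a was called higher with T3 (log2 fold change 0.31, limma, adjusted p = 0.0144).

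Among nuclear receptors known to act on Klf9 or Klf15, 2 of 7 tested rose and 1 fell, a share of calls near the 44.8% over all tested genes. The thyroid hormone receptor gene Thra fell to 1514, 1616 and 1535 normalized reads in T3 libraries, against 2480, 2571 and 2694 in vehicle libraries (log2 fold change -0.73 ± 0.05 SE, limma, adjusted p = 1.84e-06). Nr3c2, the mineralocorticoid receptor, rose 3.35-fold to 1107 ± 40.0 with T3, against 330 ± 19.0 with vehicle (limma, adjusted p = 5.67e-08). Rxra, the partner of the thyroid hormone receptors, rose 1.12-fold, a call lost with upper-quartile scaling (adjusted p = 0.0555) and with equal column totals (adjusted p = 0.0796). Thrb, the other thyroid hormone receptor gene, averaged 1446 ± 69.1 with T3 and 1573 ± 65.7 with vehicle and did not pass (limma, adjusted p = 0.0848). It was called lower after upper-quartile scaling (adjusted p = 0.0162), after equalizing column totals (adjusted p = 0.0169) and without T3 replicate 3 (adjusted p = 0.0297), so that 2 genes fell, and 1 rose under both scalings. Without vehicle replicate 3 the estrogen receptor gene Esr1 was the added fall. Nr3c1, the glucocorticoid receptor, which also induces Klf9, averaged 4937 ± 282 with T3 and 4469 ± 394 with vehicle and was not called (limma, adjusted p = 0.0965), but it was called higher without vehicle replicate 1 (adjusted p = 0.00873).

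Genes known to respond to glucocorticoids, a hormone signal that also raises Klf9, rose in 6 of 7 tested cases and fell in 0, with a median log2 fold change of 0.59. Of all tested genes 24.0% rose and 20.8% fell. Sgk1, a kinase that controls sodium transport, stood at 546, 455 and 553 in T3 libraries and at 54, 63 and 44 in vehicle libraries, a 9.56-fold rise. Fkbp5, a chaperone of the receptor, rose 3.24-fold, Dusp1, a phosphatase, 2.19-fold and the clock gene Per1 1.22-fold. Tsc22d3, a mediator of glucocorticoid action, rose to 1630 ± 54.0 with T3, against 1084 ± 16.1 with vehicle. The count was 6 also when any single library was left out, and Dusp1 is in the early response list as well.

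Early response genes, the class to which Klf6 and Klf10 belong, rose in 10 of 13 cases and fell in 2. Their median log2 fold change was 0.68. These figures include Fosb and Egr2, which passed the filter only through the T3 libraries, where they were higher. By comparison, 24.0% of all tested genes rose and 20.8% fell. The rise of Junb, whose groups overlapped, was lost with upper-quartile scaling (limma, adjusted p = 0.0619) and equal column totals (limma, adjusted p = 0.0593). In vehicle libraries Fosb was at 9, 6 and 4 normalized reads and Egr2 at 9, 5 and 8, all below the filter, so their rises lend the count no support. Both were too low to be tested with a filter at 50 or without any single T3 library. With the filter at 50 the list held 8 rises and 2 falls. Rises numbered 7 without T3 replicate 1 or T3 replicate 2. Fos, a subunit of AP-1, rose 3.66-fold to 1025 ± 30.3 with T3, against 280 ± 27.5 with vehicle. Egr1, a zinc finger factor that binds GC-rich letters, rose 1.94-fold, and Zfp36, an RNA-decay factor, 1.60-fold. Btg2, an inhibitor of division, fell to 1901 ± 85.6 with T3, against 3189 ± 57.0 with vehicle, and Myc to 1925 ± 167 with T3, against 3156 ± 135 with vehicle.

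Early TGF-beta response genes, among which Klf10 and Klf11 are counted, rose in 5 of 11 cases and fell in 2, with a median log2 fold change of 0.27. Over all tested genes 24.0% rose and 20.8% fell. Id3, an inhibitor of helix-loop-helix factors, rose 2.53-fold, Smad7, the feedback inhibitor linked to Klf10, 1.82-fold, and Skil, a SMAD corepressor, 1.59-fold. Tgfbr2, a receptor subunit, rose 1.21-fold, and Id1 fell to 225 ± 16.4 with T3, against 330 ± 36.1 with vehicle. Of 4 tested genes of the ERK5 and MEF2 route, which induces Klf2 and Klf4 in endothelium, Map2k5 was called, 1.15-fold higher, and that call was lost with upper-quartile scaling (adjusted p = 0.0577) and with equal column totals (adjusted p = 0.076). Under both scalings the list's 1 call was a fall, of Mapk7, the gene of ERK5 (adjusted p = 0.0232 and 0.0169), which averaged 598 ± 43.7 with T3 and 690 ± 58.1 with vehicle. Mapk7 was also called lower without T3 replicate 1 or vehicle replicate 1, and a second gene was called higher without T3 replicate 3 (Mef2a) or vehicle replicate 3 (Mef2d).

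**Figure D4:**
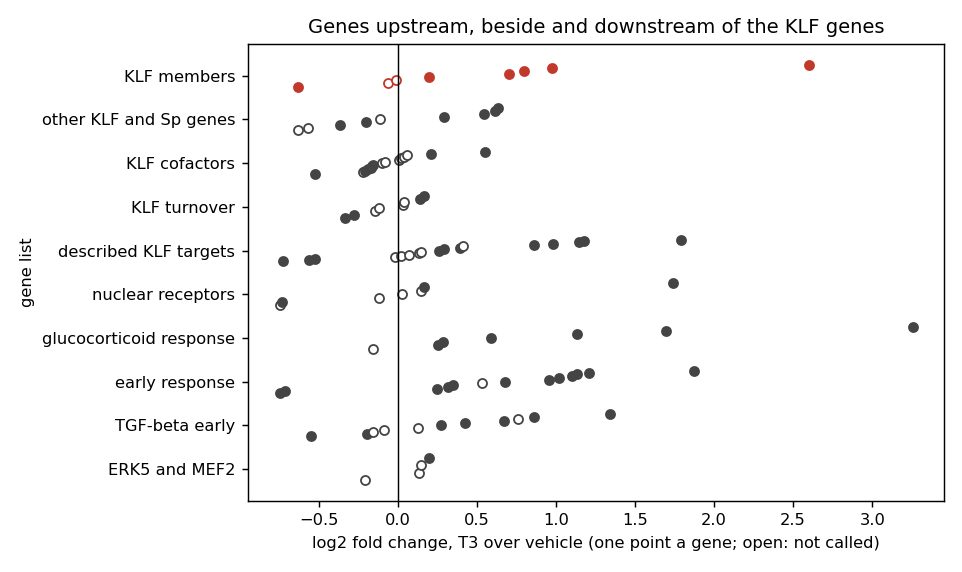
Log2 fold change of T3 over vehicle for each tested gene of the KLF set (red) and of 9 lists of related genes (black), 1 point a gene, filled where called. Points of the early response and glucocorticoid lists lie mostly right of 0, at medians of 0.68 and 0.59. Fosb and Egr2 of the early response list passed the filter only through T3 libraries. The cofactor and turnover lists have medians of -0.10 and -0.04.

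The genes whose profile over the 6 libraries was most like that of Klf9 were Mppe1, Irf1, Cpm, Slc9a3 and Ptprh, in that order. Likeness was the root mean square difference of log2(normalized reads + 1), each gene set to its vehicle mean, and it ran from 0.104 for Mppe1 to 0.152 for Ptprh. Irf1, an interferon-responsive transcription factor, stood at 4827, 4503 and 4714 normalized reads in T3 libraries and at 684, 672 and 761 in vehicle libraries. Slc9a3, the sodium-proton exchanger of the brush border, stood at 2070, 1939 and 1539 in T3 libraries and at 343, 285 and 321 in vehicle libraries. Cpm, a membrane carboxypeptidase, rose 6.63-fold by the same fit. With 2 groups of libraries this likeness rests mainly on the size of the response.

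**Figure D5:**
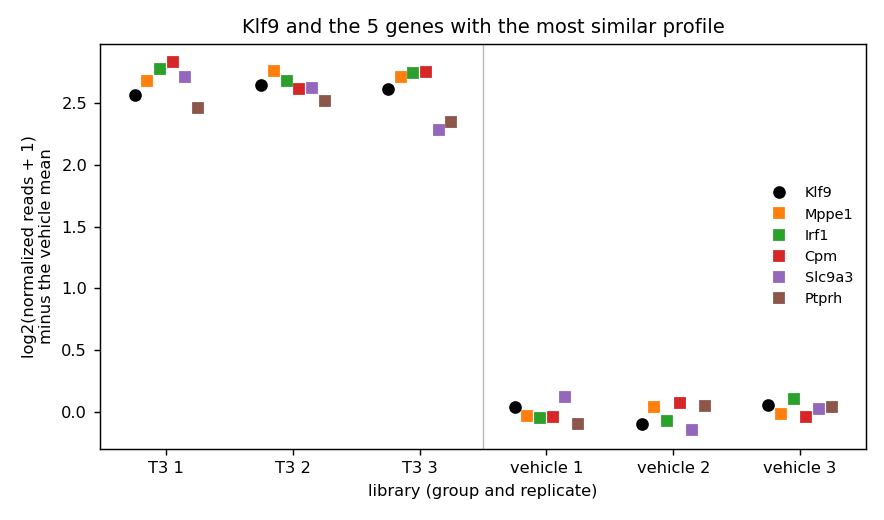
Profiles of Klf9 (black circles) and of the 5 most similar genes (squares) over the 6 libraries, as log2(normalized reads + 1) minus the vehicle mean of each gene, with T3 libraries left of vehicle libraries. The T3 points of Klf9 lie near 2.60 and those of the 5 genes spread around them, with Slc9a3 and Ptprh lowest in T3 replicate 3.

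The nearest tested genes on either side of the KLF genes did not all move with them. Their distances ran from 19.3 kb (Eps15l1, after Klf2) to 3730 kb (Gm7367, before Klf13), so not all need be adjacent genes. Klf12, the tested neighbour after Klf5 at 557 kb, is itself among the further KLF and Sp genes above. Of the 20 nearest tested neighbours, 1 on each side of each KLF gene, 6 rose and 4 fell, a share near the 44.8% called over all tested genes. Tmem2, a hyaluronidase gene and the nearest tested gene before Klf9 at 1283 kb, rose like Klf9 and averaged 806 ± 21.5 with T3 and 608 ± 5.13 with vehicle (log2 fold change 0.41, limma, adjusted p = 0.000203). Smc5, a chromosome maintenance gene and the nearest tested gene after Klf9 at 39.5 kb, averaged 1634 ± 47.5 normalized reads with T3 and 1565 ± 102 with vehicle and was not called (limma, adjusted p = 0.379). Rrm2, a subunit of ribonucleotide reductase 45.5 kb after Klf11, rose and averaged 6711 ± 243 with T3 and 4254 ± 78.6 with vehicle, while Klf11 fell (limma, adjusted p = 1.24e-06). Azin1, an antizyme inhibitor 187 kb from Klf10, rose to 7721 ± 247 with T3, against 5623 ± 239 with vehicle. Pitrm1, a mitochondrial peptidase 678 kb after Klf6, fell to 3451 ± 195 with T3, against 4721 ± 136 with vehicle. These neighbours were taken by position, and those named were picked after their values were seen.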

How the data were processed

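Per the submitters' processing notes the tools were STAR, Subread and DESeq2, no versions listed; whether counting used strand is not stated, though per the labels' protocols libraries were directional. The build is mm10 (GRCm38), per the file headers. Each deposited sample column is a normalized score, whole-number reads after between-library scaling, and no raw count: the deposited mean column equals the mean of the 6 columns to within 0.833. Log2 fold changes and p-values in the authors' deposited table are cited as theirs.

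Here, values were tested with limma 3.58.1 in R 4.3.3 (statmod 1.5.0 for robust moderation) on log2(value + 1), with a mean-variance trend and no replicate block; fold changes of low genes are therefore understated. Single values were compared over libraries with an exact permutation test, two-sided. Levels per length divide by deposited exon length and by the mean column total, as in RPKM. The test was checked on simulated data.

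The members and the gene lists were chosen with earlier results of these data known. Genes named are all members, every tested gene of the other KLF and Sp list, of each further list the 5 or fewer called genes with the smallest p-value (or the 2 highest per length where none was called), and the 5 profiles most like Klf9. Genes named outside this rule, here cofactors, receptors, markers, neighbours or other list genes that illustrate a count, were picked after their values were seen. Alternatives were other scalings, filters, pseudocounts, variance models, thresholds, the authors' values, a replicate block and leaving out each library. The second deposited table, a subset of the first, was not used.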

Additional observations from a re-analysis of the deposited data

How the results depend on the processing

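The 6 called members kept their call and direction in all 18 alternatives each, with log2 fold changes of 2.54 to 2.63 for Klf9, 0.91 to 1.02 for Klf6, 0.73 to 0.81 for Klf13, 0.64 to 0.78 for Klf10, 0.13 to 0.22 for Klf5 and -0.73 to -0.52 for Klf11. With equal column totals or upper-quartile scaling 7 members were called, the added one being Klf3, and 6 in every other alternative. Over the 68 other tested genes picked by the naming rule, 1161 of 1216 gene-by-alternative results kept their side of the threshold, 51 lost a call, 4 gained one and 0 reversed. Genes named outside that rule are not in this tally. Among them Thrb, Mapk7, Nr3c1, Esr1, Mef2a, Mef2d and Cdkn1a gained a call in some alternatives. Ncor1, Wdr5, Junb, Fosb and Egr2 lost theirs in some.

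The difference in summed level, 55.5 with the deposited scaling, was 46.0 with equal column totals, 47.5 with upper-quartile scaling and 36.6 without Klf9, and 53.7 to 57.6 without single libraries. Called genes of the turnover list numbered 1 with no variance trend, 1 at a threshold of 0.01 and 1 to 4 without single libraries, against 4. Those of the ERK5 and MEF2 list numbered 2 with TMM scaling, 2 with robust moderation, 0 at a threshold of 0.01 and 1 to 2 without single libraries, against 1. The cause of these changes was not tested, apart from the removal of Klf9 itself.

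Libraries sharing a replicate number showed no visible common deviation: the correlation of deviations was -0.07, 0.028 and -0.057 for the same-numbered pairs 1, 2 and 3. These values cannot settle whether the libraries were paired, which the labels leave unsaid. With a replicate block 5405 genes were called against 5851 without it, and the 6 members stayed called. Of the 76 tested genes under the naming rule, members included, 1 lost its call, Top2a. The differences of the log2 ratios and the summed level are the same within pairs by construction, and their exact sign-flip p could not go below 0.25. Scaled and rounded values limit genes near 0, such as Klf2 and Klf15, and Klf15 was not called with no filter on low values (limma, adjusted p = 0.146).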
